A study of Mus musculus with 14 samples.

Results

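Solute carriers are the membrane proteins that move nutrients, vitamins, metals, ions and metabolites across the cell surface and the membranes of organelles. Their transcripts were followed here in germinal center B cells sorted from the dark zone (DZ) and the light zone (LZ). The members were all genes of the deposited table of unique molecular identifier (UMI) counts whose symbol starts with Slc and a number, leaving out Slc2a1 and symbols containing -ps. The rule found 160 of the 9969 genes in the table, and 124 of the 160 had enough UMIs to be tested. The remaining 36 members held 1.83% of the members' UMIs. By symbol the rule also takes in 3 genes that are not transporters: Slc4a1ap, the adaptor kanadaptin, Slc7a6os, a gene named for lying opposite Slc7a6, and Slc9a3r1, a scaffold protein.

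The mice were chimeras of the C57BL/6 strain, in which 50% of the cells were wild type (WT) and 50% carried SykY317F, a form of the B cell receptor kinase Syk with a tyrosine-to-phenylalanine substitution. All had been immunized with NP-KLH, a hapten coupled to a carrier protein, and popliteal lymph nodes were taken 14 days later. WT DZ and WT LZ had 4 libraries each, and SykY317F DZ and SykY317F LZ had 3 each. Neither the ages of the mice, nor how the chimeras were made, nor the number of mice behind a library is given in the labels. Nothing there says that each library of a group is a mouse of its own, so the p-values measure the spread between these libraries, which may be technical. Because these are bulk samples, fewer cells of a type and less RNA per cell cannot be told apart.

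In the dark zone B cells proliferate and hypermutate their immunoglobulin genes, and in the light zone they take up antigen, present it to T cells and are selected. Both tasks draw on solute carriers: mitochondrial carriers of the SLC25 family exchange nucleotides, phosphate and metabolites with the cytosol, the SLC1, SLC7 and SLC38 families bring in amino acids, and carriers of the SLC15 and SLC29 families export peptides, amino acids and nucleosides from lysosomes. Amino acids that leave the lysosome are sensed by the kinase complex mTORC1, and loss of amino acids activates the transcription factor ATF4.

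Library depth differed between the groups. Totals ran from 149641 to 1767898 UMIs, and the 3 SykY317F LZ libraries held 149641 to 379125. The yield of UMIs per 100 reads was 33.5 to 53.2 in 10 libraries, and it was lower in the 3 SykY317F LZ libraries (9.37 to 15.8) and in replicate 4 of SykY317F DZ (15.6). Levels are given as counts per unit library total (CPM, the usual scale of edgeR) after TMM scaling, which adjusts library totals for composition. A count of 3 UMIs, the most that a count of 0 allows, corresponds to 8.95 to 18.8 CPM in SykY317F LZ and to 1.73 to 8.29 CPM elsewhere. Summed over 9 measured B and germinal center B cell markers, levels were 8152 to 11350 CPM in WT DZ, 6125 to 7861 in WT LZ, 7806 to 8667 in SykY317F DZ and 7559 to 8232 in SykY317F LZ.

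The members together took a small and similar part of the transcriptome in every group. Their summed UMIs made up 0.724% ± 0.021 of WT DZ libraries and 0.762% ± 0.058 of WT LZ libraries (SD, n = 4 each), and 0.721% ± 0.068 of SykY317F DZ and 0.706% ± 0.079 of SykY317F LZ libraries (SD, n = 3 each). The lowest library was SykY317F LZ replicate 2 at 0.650% (Wilson score 95% interval 0.616 to 0.686%) and the highest was WT LZ replicate 3 at 0.814% (0.790 to 0.840%). These intervals cover counting error only, and the ranges of the 4 groups overlap. At least 1 UMI was found for 155 to 159 members in WT DZ, 147 to 159 in WT LZ and 146 to 160 in SykY317F DZ, and for 117 to 140 in the shallow SykY317F LZ libraries.

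A few carriers held much of this signal. The 4 members with the most UMIs held 30.1% of the 94623 member UMIs and the top 12 held 49.8%, while 10 members had fewer than 30 UMIs in all 14 libraries together. By substrate, the 34 mitochondrial carriers held 42.8% of the member UMIs and the 22 amino acid and peptide members 19.8%. Inorganic ion and pH members held 8.30%, nucleotide sugar and acetyl-CoA carriers 8.10%, metal and heme carriers also 8.10%, sugar and monocarboxylate carriers 5.88%, carriers of nucleosides, vitamins and choline 5.56%, and the remaining lipid, organic ion and vesicular carriers 1.48%. UMIs mark transcript ends and are not divided by transcript length, so these shares count molecules captured.

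**Figure D1:**
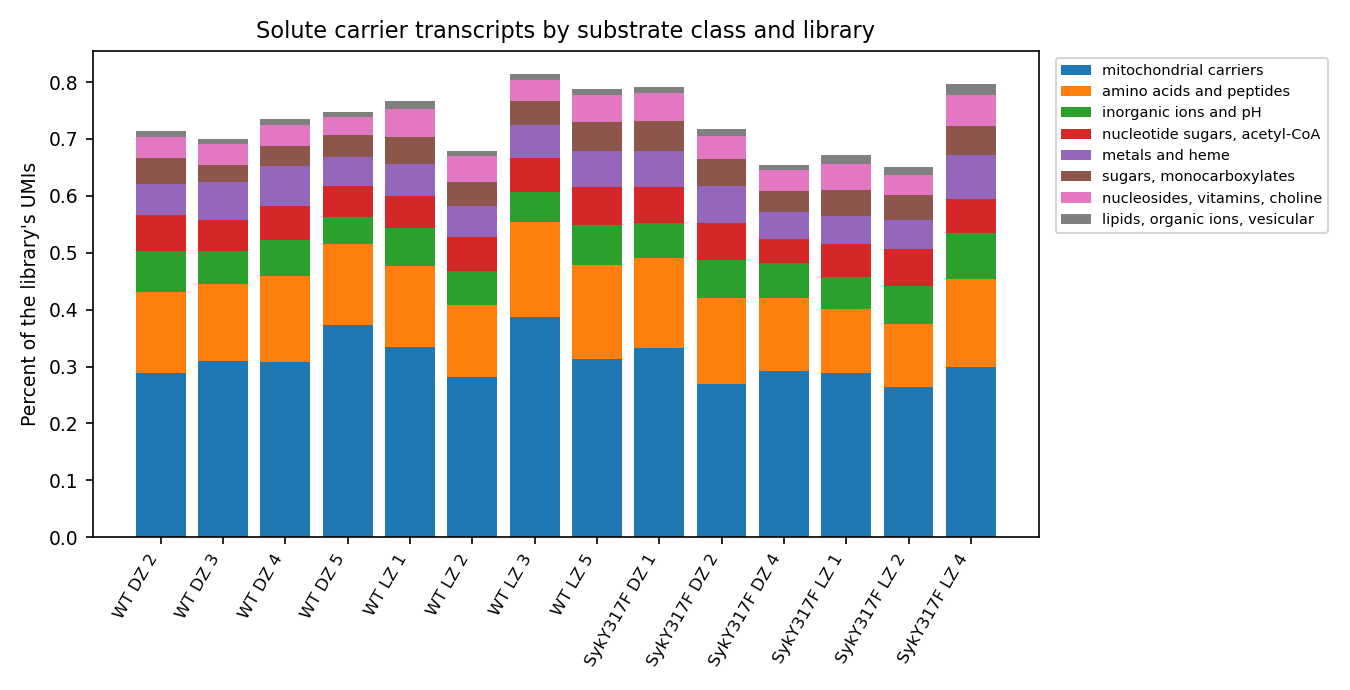
Stacked bars show, for each of the 14 libraries, the percent of its UMIs that fell on each of 8 substrate classes of solute carriers. Mitochondrial carriers form the largest band in every library, and the totals lie between 0.650% and 0.814%.

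The most abundant member, Slc25a3, the mitochondrial phosphate carrier (11024 UMIs), averaged 896 ± 191 CPM in the 4 WT DZ libraries, 859 ± 115 in the 4 of WT LZ, 773 ± 33 in the 3 of SykY317F DZ and 821 ± 16.8 in the 3 of SykY317F LZ (SD). Slc25a5, an ADP/ATP carrier with 8102 UMIs, averaged 649, 633, 642 and 607 CPM in the same order. For both genes the ranges of the 4 groups overlap. Slc1a5, the glutamine and neutral amino acid carrier, averaged 328 ± 95.2, 335 ± 66.8, 332 ± 94.6 and 252 ± 40.3 CPM, and Slc38a2, a sodium-coupled neutral amino acid carrier, averaged 141, 151, 150 and 109 CPM. Slc15a4, a lysosomal histidine and peptide transporter, averaged 218, 222, 190 and 178 CPM, Slc50a1, a sugar transporter, 178, 198, 236 and 236 CPM, and Slc28a2, a concentrative nucleoside transporter, 111, 127, 125 and 148 CPM. Of these abundant members, 0 passed the test in any comparison. Slc16a3, a lactate exporter (49 UMIs), and Slc11a1, a lysosomal metal transporter of phagocytes (39 UMIs), were measured but were too low to be tested. The lactate carrier Slc16a1 and the iron exporter Slc40a1 have no row among the UMI counts and could not be analysed.

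The first question was whether zone identity is reflected in these carriers. Averaged over both genotypes, Slc2a6 and Slc15a3 passed the test as higher in the light zone, and 0 members passed as lower. Each was about doubled: Slc2a6 was 2.06-fold and Slc15a3 1.93-fold higher in LZ. Slc2a6 (GLUT6) is a hexose transporter of lysosomal membranes, and Slc15a3 is a lysosomal transporter of histidine and peptides related to Slc15a4. These 2 of 124 tested members passed an adjusted p of 0.05 in edgeR's quasi-likelihood test, a share to be read against 1.43% of all 7999 tested genes in either direction and 0.55% for genes higher in LZ, with 0.875% lower. A count of 2 is near that background. Among the members tested, 10 were over the filter level in at least 3 libraries of LZ alone and 9 in DZ alone.

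Slc2a6 lies on chromosome 2 (GRCm38 27021363 to 27027998, minus strand), and no other annotated gene overlaps it. In WT DZ replicates 2, 3, 4 and 5 it was at 45.3, 36.5, 40.05 and 51.5 CPM, and in WT LZ replicates 1, 2, 3 and 5 at 96.5, 71.2, 53.7 and 69.3 CPM. In SykY317F replicates 1, 2 and 4 the values were 45.7, 35.7 and 24.9 CPM in DZ and 53.7, 84.7 and 151 CPM in LZ. Every LZ library lay above every DZ library of its genotype, although the WT gap was narrow, from 51.5 to 53.7 CPM. The SykY317F LZ values rest on 18, 15 and 24 UMIs. The log2 fold change averaged over genotypes was 1.04 ± 0.24 (SE; adjusted p = 0.0299, edgeR), with a 95% interval of 0.55 to 1.53. Within WT it was 0.75 ± 0.29 (adjusted p = 0.426) and within SykY317F 1.33 ± 0.37 (adjusted p = 0.212), so neither genotype passed alone. The difference between both zone effects was 0.58 ± 0.47 (adjusted p = 0.999; 95% interval -0.40 to 1.56).

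Slc15a3 lies on chromosome 19 (GRCm38 10839727 to 10859362, plus strand), where its exons overlap Tmem132a on the other strand. The labels do not state whether counting used strand, so reads of the pair may not be separable and the value is uncertain to that extent. Its levels in WT DZ were 41.4, 41.8, 36.5 and 63.4 CPM and in WT LZ 80.1, 91.9, 72.9 and 62.4 CPM, in the replicate order given above. SykY317F DZ libraries held 38.5, 39.7 and 38.7 CPM and SykY317F LZ libraries 59.7, 79.0 and 132 CPM. The SykY317F zones did not overlap, whereas in WT the replicate 5 libraries met, LZ at 62.4 and DZ at 63.4 CPM. The averaged log2 fold change was 0.95 ± 0.22 (SE; adjusted p = 0.0304, edgeR; 95% interval 0.50 to 1.40), made of 0.73 ± 0.26 in WT (adjusted p = 0.369) and 1.16 ± 0.34 in SykY317F (adjusted p = 0.253). Both zone effects differed by 0.42 ± 0.43 (adjusted p = 0.999; 95% interval -0.47 to 1.32).

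Both calls depended on the libraries included. Leaving out 1 library ended both for 9 of the 14: WT DZ replicate 3 or 4, WT LZ replicate 1 or 2, SykY317F DZ replicate 1, 2 or 4, and SykY317F LZ replicate 2 or 4. A replicate block also ended both. Without both SykY317F LZ replicates 2 and 4, the libraries with the fewest UMIs, 0 members passed: Slc2a6 was at 0.66 in log2 units (adjusted p = 0.324, edgeR) and Slc15a3 at 0.68 (adjusted p = 0.257), with the remaining SykY317F LZ library assumed to vary like the other groups. Slc15a3 is also expressed by phagocytes. Summed CPM of 7 measured macrophage markers ran from 75.1 to 356 in WT DZ, 38.4 to 145 in WT LZ, 240 to 514 in SykY317F DZ and 32.8 to 90.3 in SykY317F LZ. In SykY317F they were lower in LZ, the zone where Slc15a3 was higher, and in WT the zones overlapped. In WT, T cell markers (5 measured) summed to 18.6 to 48.9 CPM in DZ and 55.4 to 139 in LZ, and naive B cell markers (5 measured) to 491 to 916 in DZ and 825 to 1646 in LZ. In SykY317F these were 77.0 to 177 and 47.8 to 124 for T cells and 1075 to 1835 and 1621 to 1970 for naive B cells. Their part in the zone results was not tested.

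**Figure D2:**
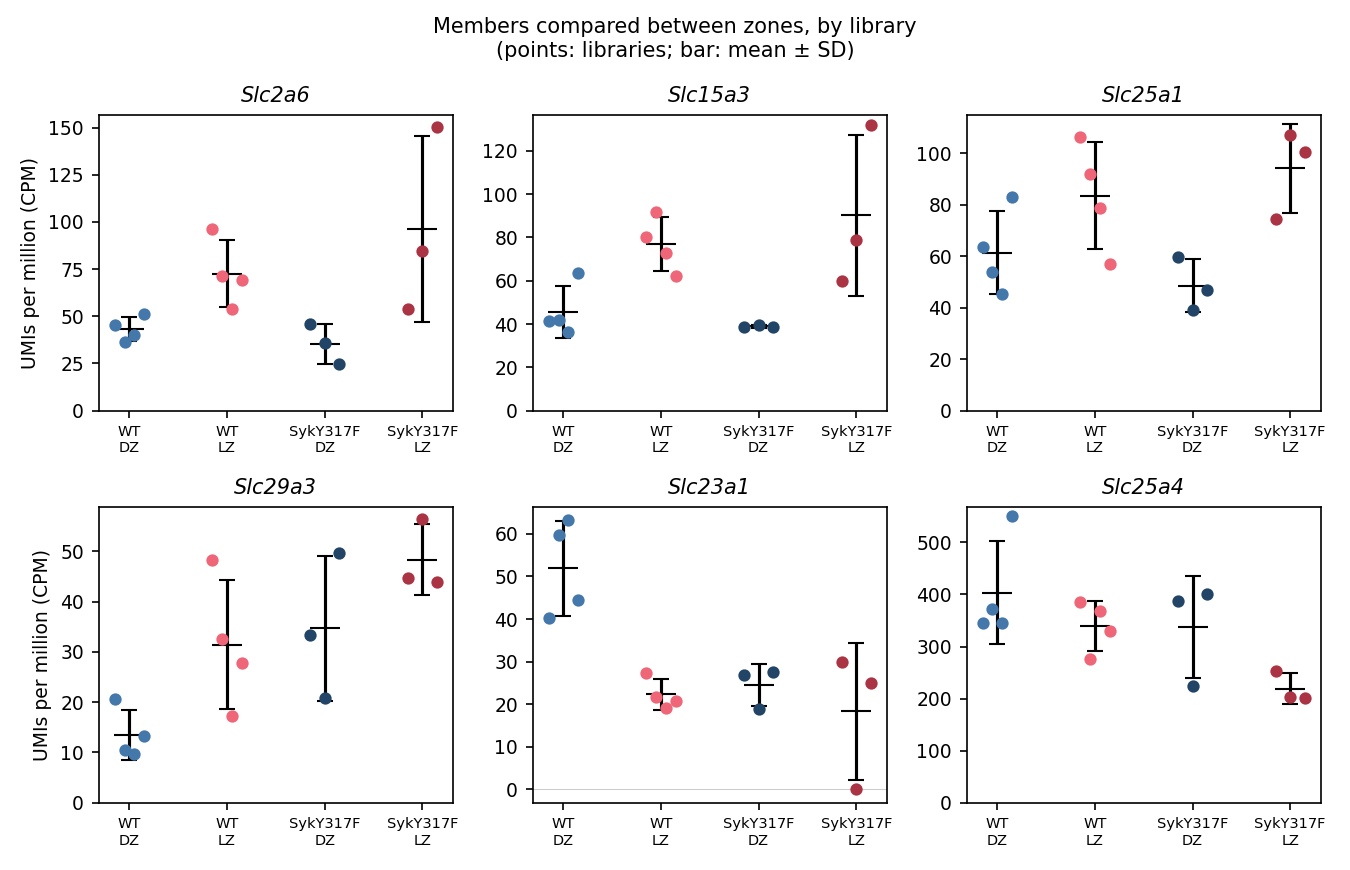
Points give CPM by library for 6 members in the 4 groups, and the bars the mean ± SD. Slc2a6 shows no overlap between DZ and LZ in either genotype, with LZ means of 72.7 CPM in WT and 96.3 CPM in SykY317F over DZ means of 43.3 and 35.4 CPM.

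Other members higher in LZ did not pass. Slc25a1, the mitochondrial citrate carrier (chromosome 16, GRCm38 17925223 to 17928219), averaged 61.4 ± 16.1 CPM in WT DZ, 83.5 ± 20.9 in WT LZ, 48.5 ± 10.3 in SykY317F DZ and 94.1 ± 17.2 in SykY317F LZ. Its averaged log2 fold change was 0.68 ± 0.21 (adjusted p = 0.130), and in SykY317F all 3 LZ libraries, 74.6 to 107 CPM, lay above the DZ libraries, 39 to 59.5 CPM. Slc29a3, a nucleoside transporter of lysosomes (chromosome 10, GRCm38 60712072 to 60752794), followed at 0.90 ± 0.30 (adjusted p = 0.143). WT DZ libraries held 20.7, 10.4, 9.79 and 13.2 CPM of it and WT LZ libraries 48.3, 32.6, 17.3 and 27.7 CPM. WT LZ replicate 3 fell below WT DZ replicate 2, so these groups overlap.

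Promoters of Slc2a6, Slc25a1 and Slc29a3 were read from RefSeq (GRCm38.p6), which gave no entry for Slc15a3. The 250 bases before each transcript start in RefSeq are shown, since these are the sequences upstream of members described in the zone comparison. Capitals mark matches on either strand to the GC box GGGCGG, the CCAAT box CCAAT, the E-box CACGTG, which reads the same on both strands, and the kappaB motif. In the printed direction a minus-strand match appears as its reverse complement. All 3 genes lie on the minus strand, and the regions are chr2:27027999-27028248 for Slc2a6, chr16:17928220-17928469 for Slc25a1 and chr10:60752783-60753032 for Slc29a3. For Slc29a3 the RefSeq start lies inside the GENCODE gene given above, so the bases of the region nearest the start fall within that gene.
Slc2a6: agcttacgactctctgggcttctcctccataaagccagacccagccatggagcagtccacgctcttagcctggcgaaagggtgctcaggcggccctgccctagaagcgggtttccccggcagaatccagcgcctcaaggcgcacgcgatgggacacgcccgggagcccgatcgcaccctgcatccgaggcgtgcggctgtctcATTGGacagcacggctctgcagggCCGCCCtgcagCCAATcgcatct
Slc25a1: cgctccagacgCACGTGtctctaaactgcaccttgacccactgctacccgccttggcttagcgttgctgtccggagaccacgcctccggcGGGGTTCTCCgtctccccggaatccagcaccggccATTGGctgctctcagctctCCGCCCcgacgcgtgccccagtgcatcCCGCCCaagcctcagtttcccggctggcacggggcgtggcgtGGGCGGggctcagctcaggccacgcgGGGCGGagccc
Slc29a3: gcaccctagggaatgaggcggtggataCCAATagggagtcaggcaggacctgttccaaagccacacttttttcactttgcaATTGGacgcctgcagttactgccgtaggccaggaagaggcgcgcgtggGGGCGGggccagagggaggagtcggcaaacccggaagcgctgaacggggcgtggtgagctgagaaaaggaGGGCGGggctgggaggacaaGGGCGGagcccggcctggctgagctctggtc
All 3 hold CCAAT boxes and GC boxes, and Slc25a1 alone among them holds an E-box, starting 239 bases before the start, and a kappaB match, 160 bases before it. Such matches are common. The shares below are of genes with a promoter entry, and a gene counts if any of its entries holds a match. Of the 122 members with a promoter entry, 72.1% held a GC box, against 65.7% of tested genes and 35.4% of all genes. A CCAAT box was found in 41% of members, 41% of tested genes and 37.5% of all genes, and the kappaB motif in 10.7%, 10.3% and 8.2%. The E-box, bound by helix-loop-helix factors such as MYC and TFEB, occurred in 16.4% of members (20 of 122), 10.6% of tested genes and 6.9% of all genes. Fewer members held GAGGAAGT, the core bound by the B cell and myeloid factor PU.1 (3.3% of members, 3.1% of tested genes and 2.8% of all genes). TGATGCAA, the core of an ATF4 element, was also rare (1.6%, 0.6% and 0.9%). Within the 3 promoters shown, no match overlaps another.

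Other members lay higher in LZ at an unadjusted p under 0.05 without passing adjustment. In total 12 of 124 members were higher and 6 lower at that level, where the background is 6.36% of tested genes higher and 7.94% lower, 14.3% in all. Slc17a9, the vesicular nucleotide transporter, had an averaged log2 fold change of 1.16 ± 0.42 and Slc23a2, an ascorbate transporter, of 0.68 ± 0.24. Slc4a8, a sodium-driven bicarbonate exchanger with 77 UMIs in all, was at 1.69 ± 0.58, and Slc29a1, the equilibrative nucleoside transporter of the plasma membrane, at 0.55 ± 0.25. Among members lower in LZ were Slc25a15, the mitochondrial ornithine carrier (-1.41 ± 0.48), Slc25a16 (-1.65 ± 0.71), Slc39a11, a zinc transporter (-0.92 ± 0.39), and Slc25a4, the other abundant ADP/ATP carrier (-0.43 ± 0.18). Adjusted p-values for these 8 lay between 0.162 and 0.310 in edgeR. The lowest of them in UMIs, such as Slc25a15 with 5, 1, 1 and 0 UMIs in the 4 shallowest libraries, are limited by depth in SykY317F LZ.

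The ascorbate transporters lay on opposite sides in WT. Slc23a1 (chromosome 18, GRCm38 35614604 to 35627244) was at 40.1, 59.7, 63.2 and 44.6 CPM in WT DZ and at 27.4, 21.7, 19.2 and 20.8 CPM in WT LZ. Slc23a2 was at 29.8, 23.1, 23.1 and 22 CPM in WT DZ and at 51.6, 46.5, 44.1 and 42.7 CPM in WT LZ. For neither gene did the WT zones overlap. In log2 units Slc23a1 was at -1.21 ± 0.36 (adjusted p = 0.214) and Slc23a2 at 0.92 ± 0.28 (adjusted p = 0.225) by edgeR. In the authors' deposited table of comparisons, Slc23a1 was the 1 member of 160 with an adjusted p under 0.05 in WT, at a log2 fold change of -1.23 with an adjusted p of 0.0279. Here DESeq2 gave 0.0217 for it (Wald test, adjusted). In SykY317F, Slc23a1 was at 26.9, 18.8 and 27.6 CPM in DZ and 29.8, 0 and 25.1 CPM in LZ. The 0 comes from replicate 2 and allows up to 16.9 CPM.

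Within WT, 0 of 124 members passed in edgeR (background 0.188%, with 0.05% higher and 0.138% lower), and DESeq2's Wald test called 1, Slc23a1. At an unadjusted p under 0.05 there were 8 higher (background 4.59%) and 3 lower (3.89%), 11 in all (8.48%). Slc29a3 led at 1.26 ± 0.37 (adjusted p = 0.208), and Slc17a9 at 1.60 ± 0.51 and Slc19a1, the reduced folate carrier, at 1.24 ± 0.50 were among the others. Slc25a33, a mitochondrial pyrimidine nucleotide carrier whose exons overlap Gm13068 on the other strand, was lower at -0.92 ± 0.38 (adjusted p = 0.468). All WT LZ libraries lay above all WT DZ libraries for 8 members (background 2.89%): Slc25a28, Slc2a6, Slc23a2, Slc29a1, Slc9a5, Slc17a9, Slc35d2 and Slc19a1. The reverse held for Slc4a1ap, Slc23a1 and Slc25a33 (background 2.88%).

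Within SykY317F, 0 members passed in edgeR and 0 in DESeq2 (background in edgeR 0.0375%, with 0.0125% higher and 0.025% lower). An unadjusted p under 0.05 was reached by 7 higher members (background 4.04%) and 2 lower ones (6.23%), 9 in all (10.3%). LZ libraries were all above DZ libraries for 11 members, against 6.56% of tested genes, and all below for 3, against 8.5%. Those 3 were Slc25a12, an aspartate/glutamate carrier, the glucose transporter Slc2a3 and Slc25a15. For Slc2a3, LZ replicates 2 and 4 lay at or below the level of a count of 3 UMIs. Slc25a15 was at 12.3, 13.5 and 13.8 CPM in DZ and 2.98, 5.65 and 0 CPM in LZ, where 2 UMIs were counted over the 3 libraries. For LZ replicate 4 the 0 allows up to 18.8 CPM, above the DZ values, so this separation is not settled. The log2 fold change of Slc25a15 was -2.09 ± 0.86 (adjusted p = 0.410). Slc25a4 was at 387, 224 and 401 CPM in DZ and at 254, 203 and 201 CPM in LZ, a log2 fold change of -0.60 ± 0.28 (adjusted p = 0.472), with LZ replicate 1 above DZ replicate 2. In both genotypes at once, Slc2a6 was the 1 of 124 members (0.806%) with all LZ above all DZ libraries, against 0.513% of tested genes. The reverse held for 0 members, against 0.813% of tested genes.

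**Figure D3:**
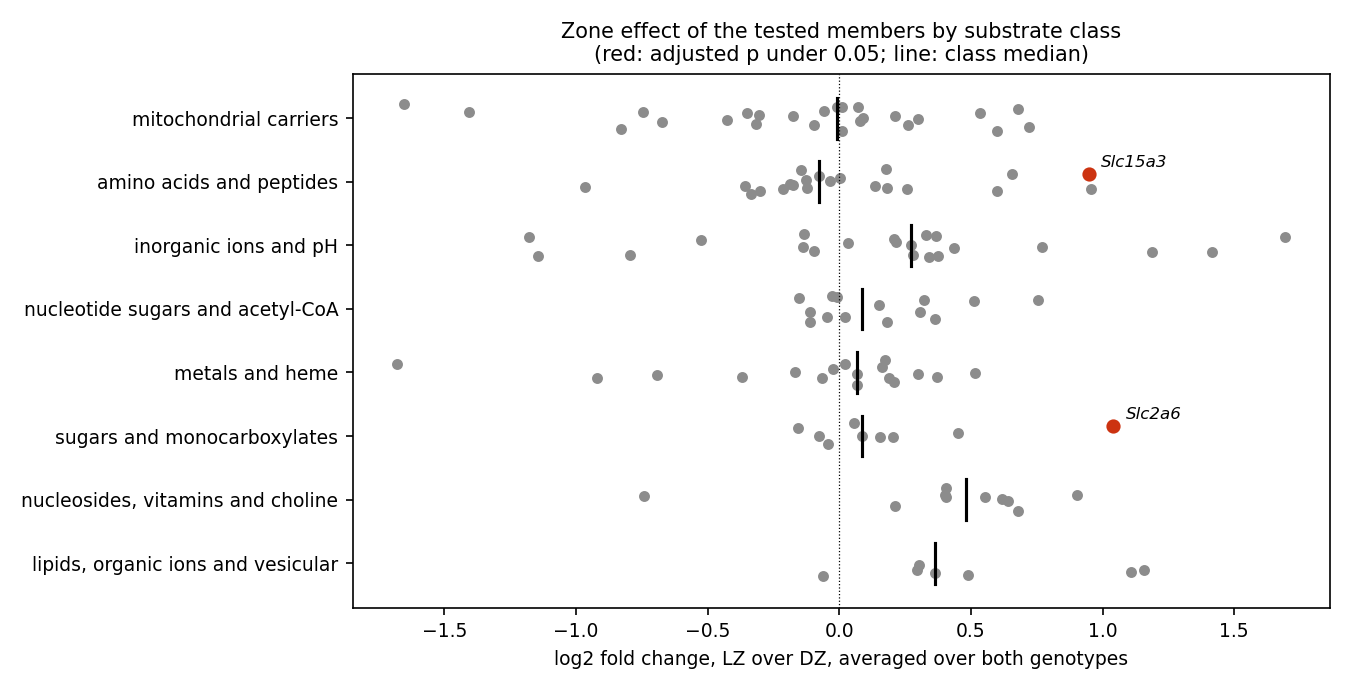
Each point is a tested member, placed at its log2 fold change of LZ over DZ averaged over both genotypes and grouped by substrate class, with the class median as a line. Slc2a6 and Slc15a3, in red, passed the test, and carriers of nucleosides, vitamins and choline have the highest class median, 0.48.

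By substrate class, most medians were near 0. The median log2 fold change of the 124 members was 0.09 over both genotypes, with 74 higher in LZ, against -0.03 for all tested genes. It was 0.13 in WT (77 higher; all genes -0.02) and 0.04 in SykY317F (69 higher; all genes -0.04). Leaving out 1 library at a time, the averaged median ran from 0.05 (without SykY317F LZ replicate 1) to 0.14 (without SykY317F DZ replicate 2), and the WT median from 0.10 (without WT LZ replicate 5) to 0.21 (without WT DZ replicate 5). The SykY317F median ran from -0.04 (without SykY317F LZ replicate 1) to 0.10 (without SykY317F DZ replicate 2), so its sign is not settled. Scaled by library size alone, the SykY317F median was -0.09 and that of all genes -0.19. Carriers of nucleosides, vitamins and choline had the highest median over both genotypes, 0.48, with 9 of 10 tested members above 0 and Slc23a1 below, and in WT and SykY317F their medians were 0.71 and 0.36. Of the 10, 0 passed the test. Inorganic ion and pH members followed in WT at 0.31 (16 of 21 higher), with 0.10 in SykY317F. Mitochondrial carriers were balanced, with a median of -0.01 and 12 of 25 higher. The 21 amino acid and peptide members had medians of 0.09 in WT (14 higher) and -0.19 in SykY317F (8 higher), and Slc15a3 was their single call. Metal and heme carriers (17 tested), nucleotide sugar and acetyl-CoA carriers (14 tested) and sugar and monocarboxylate carriers (9 tested) had medians of 0.07, 0.09 and 0.09 over both genotypes, and 7 lipid, organic ion and vesicular members had 0.36. In SykY317F that class had the highest median, 0.72, with 6 of 7 higher, and in WT it was at 0.11. The class held only 0.0134% to 0.0207% of the UMIs of the shallow SykY317F LZ libraries. Its SykY317F median therefore rests on few UMIs per member, and 0 of the 7 passed.

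The second question was whether the Syk substitution altered the carriers within a zone. In DZ, 0 of 124 members passed in edgeR or DESeq2, as for all tested genes in edgeR (background 0%), and 5 had an unadjusted p under 0.05 (background 3.81%), 4 higher (2.83%) and 1 lower (0.988%). The median member was at -0.01 (SykY317F over WT; all genes -0.04), with 61 of 124 higher, and ran from -0.02 (without WT LZ replicate 3) to 0.05 (without WT DZ replicate 5) when 1 library was left out. Slc29a3 had the smallest p: its SykY317F DZ libraries held 33.4, 20.9 and 49.8 CPM against 9.79 to 20.7 CPM in WT DZ. The groups did not overlap, by a margin of 20.7 to 20.9 CPM, and the log2 fold change was 1.31 ± 0.40 (adjusted p = 0.766). Beside it, macrophage marker sums were 75.1 to 356 CPM in WT DZ and 240 to 514 CPM in SykY317F DZ. The T cell and naive B cell sums given above did not overlap between WT DZ and SykY317F DZ, and both were higher in SykY317F. Their part in the genotype results was not tested.

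Slc7a5, the large neutral amino acid transporter that pairs with Slc3a2, was at 10.4, 10.4, 11.6 and 7.54 CPM in WT DZ and at 21.8, 11.4 and 41.5 CPM in SykY317F DZ. Replicate 2 of SykY317F lay within the WT range, and the log2 fold change was 1.20 ± 0.47 (adjusted p = 1.0 in edgeR). The values rest on 8 to 14 UMIs in WT and 15 to 30 in SykY317F. Its partner Slc3a2, the CD98 heavy chain, averaged 122 ± 29.1 CPM in WT DZ and 142 ± 30.4 CPM in SykY317F DZ. In LZ the pair averaged 12.0 and 140 CPM in WT and 23.2 and 155 CPM in SykY317F. Slc38a1, a sodium-coupled glutamine carrier, averaged 63.3 ± 22.8 CPM in WT DZ and 44.1 ± 28.9 CPM in SykY317F DZ.

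Slc2a3 (GLUT3), a glucose transporter, and Slc19a1 differed in DZ with no overlap and in LZ with overlap or in the other direction. Slc2a3 was at 9.06, 13.4, 10.7 and 19.5 CPM in WT DZ and at 21.8, 23.5 and 27.6 CPM in SykY317F DZ. In LZ its values were 20.8, 17.8, 23 and 24.2 CPM in WT and 17.9, 16.9 and 12.5 CPM in SykY317F. In SykY317F LZ replicates 2 and 4 it lay at or below the level of a count of 3 UMIs, 16.9 and 18.8 CPM. SykY317F was above WT in every DZ library, and the DZ log2 fold change was 0.83 ± 0.37 (adjusted p = 1.0). The zone effect of Slc2a3 was 0.67 ± 0.34 in WT and -0.56 ± 0.48 in SykY317F, a difference of -1.23 ± 0.59 (adjusted p = 0.999, edgeR). The SykY317F zone effect and this difference rest in part on those few UMIs. Slc19a1 was at 5.02 to 6.71 CPM in WT DZ and 9.44 to 19.4 CPM in SykY317F DZ (1.24 ± 0.53, adjusted p = 1.0), on 4 to 9 and 7 to 20 UMIs. Slc23a1 lay the other way, at 18.8 to 27.6 CPM in SykY317F DZ against 40.1 to 63.2 CPM in WT DZ, a log2 fold change of -1.11 ± 0.40 (adjusted p = 0.899). In all, SykY317F DZ was above WT DZ in every library for 9 members (background 3.56%) and below for 2, Slc23a1 and Slc25a33 (background 2.31%).

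**Figure D4:**
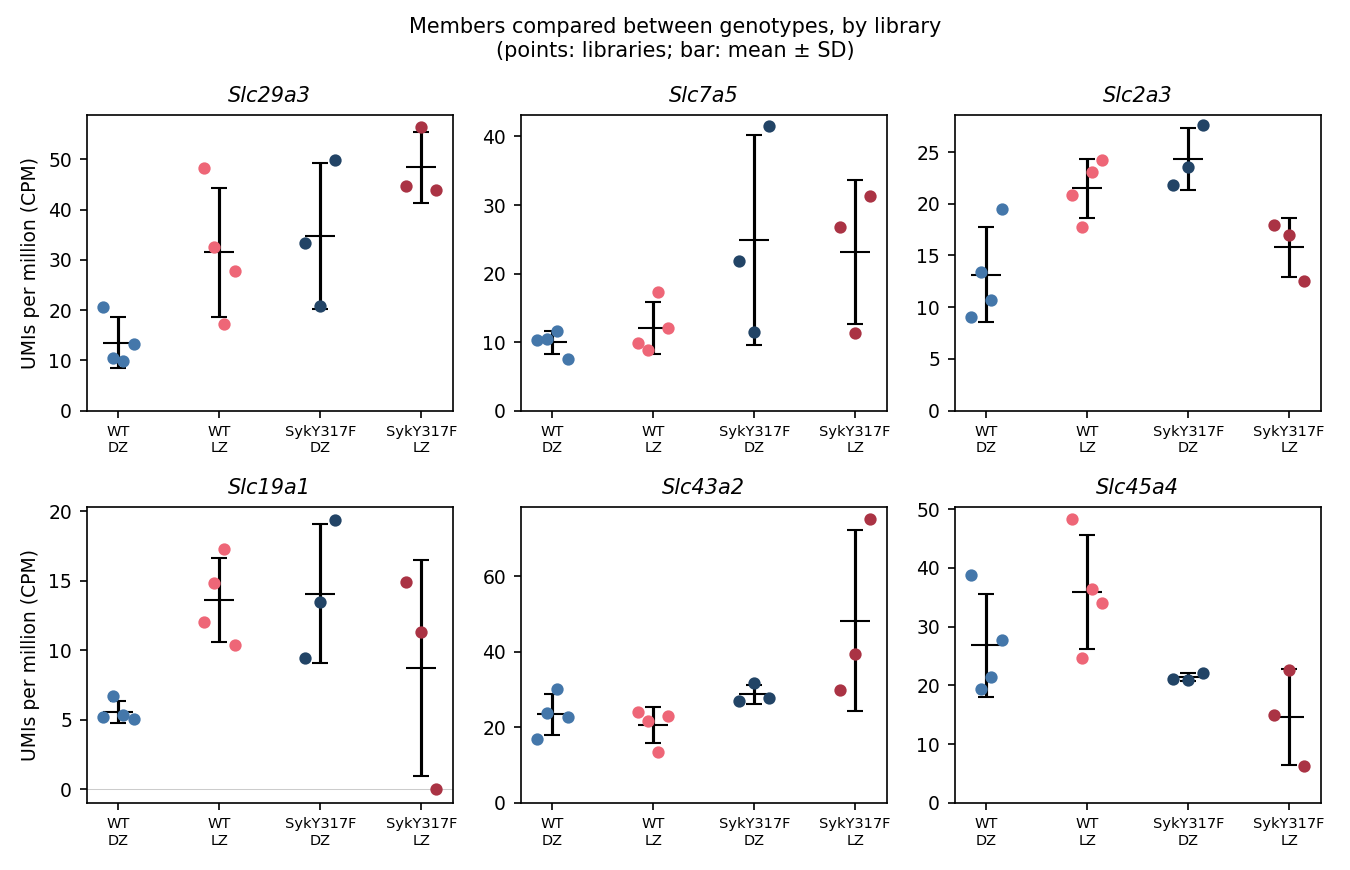
Points give CPM by library for 6 members described for genotype in DZ or LZ, and the bars the mean ± SD. In DZ the SykY317F libraries of Slc29a3, Slc2a3 and Slc19a1 lie above the WT libraries, and in LZ those of Slc43a2 lie above and those of Slc45a4 below.

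In LZ, 0 of 124 members passed in edgeR or DESeq2 (background 0% in edgeR), and 5 had an unadjusted p under 0.05 (background 9.81%), 3 higher (3.64%) and 2 lower (6.18%). The median member was at -0.04 (all genes -0.06), again with 61 of 124 higher, and ran from -0.09 (without SykY317F LZ replicate 1) to 0.02 (without WT LZ replicate 5) when 1 library was left out. Slc43a2, a large neutral amino acid transporter whose exons overlap Gm45606 on the other strand, was at 24.1, 21.7, 13.4 and 23.1 CPM in WT LZ and 29.8, 39.5 and 75.3 CPM in SykY317F LZ. Slc45a4 was at 48.3, 24.7, 36.5 and 34.1 CPM in WT and 14.9, 22.6 and 6.27 CPM in SykY317F. Its 6.27 CPM in SykY317F LZ replicate 4 lies below the level of a count of 3 UMIs, 18.8 CPM. In CPM neither gene overlapped between genotypes, but for Slc45a4 the separation from 22.6 to 24.7 CPM is narrow at these counts. Their log2 fold changes were 1.13 ± 0.40 (adjusted p = 0.347) and -1.26 ± 0.48 (adjusted p = 0.385), on 7 to 12 UMIs of Slc43a2 and 1 to 5 UMIs of Slc45a4 in SykY317F LZ.

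Slc25a4 in LZ was at 385, 277, 369 and 329 CPM in WT and at 254, 203 and 201 CPM in SykY317F, without overlap (-0.62 ± 0.26, adjusted p = 0.440). Slc27a3, a fatty acid transport and activating protein, was at 11, 7.91, 7.68 and 12.7 CPM in WT LZ and 23.9, 16.9 and 25.1 CPM in SykY317F LZ (1.13 ± 0.49, adjusted p = 0.444). Slc14a1, a urea transporter, was at 13.4 to 23 CPM in WT LZ and 35.8 to 45.2 CPM in SykY317F LZ (1.07 ± 0.47, adjusted p = 0.456). In every one of these genes the groups were apart in CPM. For Slc27a3, the 16.9 CPM of SykY317F LZ replicate 2 is the level of a count of 3 UMIs. Counting all members, SykY317F LZ was above WT LZ in every library for 5 (Slc44a2, Slc16a6, Slc43a2, Slc14a1 and Slc27a3; background 3.84%) and below for 3 (Slc25a4, Slc25a51 and Slc45a4; background 6.66%). Depth and UMIs per read also separate these 2 groups, and their part was not tested.

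The test of whether the zone effect itself differed between genotypes called 0 of 124 members in edgeR and in DESeq2 (background 0%). An unadjusted p under 0.05 was reached by 2 (background 4.8%), 1 above 0 (1.63%) and 1 below (3.18%). They were Slc27a3, with a difference of 1.37 ± 0.65 (adjusted p = 0.999, edgeR), and Slc2a3, given above. The median member was at -0.12, with 51 of 124 above 0, and the median of all tested genes at -0.05. Leaving out 1 library, the members' median ran from -0.25 (without SykY317F LZ replicate 2) to -0.05 (without WT DZ replicate 4). Among the members with the smallest p in these comparisons were also Slc30a5, Slc6a6, Slc31a1, Slc20a2, Slc17a5, Slc25a25, Slc35a4, Slc35b2, Slc36a1 and Slc35b4, of which 0 passed.

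**Figure D5:**
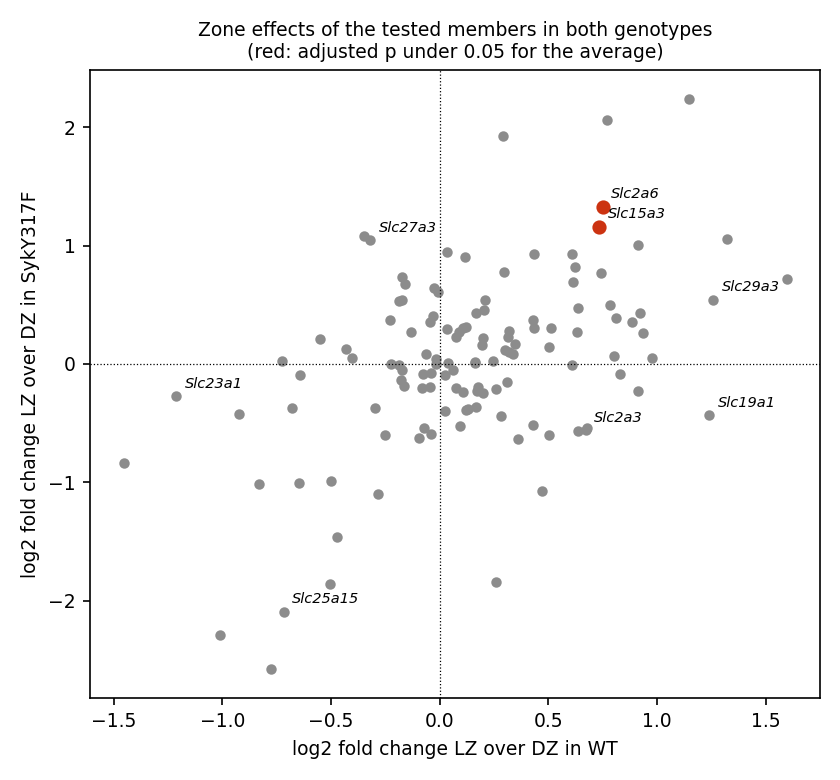
Each point is a tested member, with its log2 fold change of LZ over DZ in WT on the horizontal axis and in SykY317F on the vertical axis. Slc2a6 and Slc15a3, in red, are above 0 on both axes, and Slc2a3 and Slc19a1 are above 0 in WT and below 0 in SykY317F.

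Genes that work with these carriers were read from the same fit. Of 19 tested genes of amino acid sensing and mTORC1, 1 passed in the averaged zone comparison, where the background is 1.43% of tested genes in either direction and 0.55% higher: Tfeb, a transcription factor of lysosomal genes that mTORC1 holds in the cytosol, averaged 134 ± 18 CPM in WT DZ, 217 ± 68.1 in WT LZ, 124 ± 30.7 in SykY317F DZ and 234 ± 25.4 in SykY317F LZ (0.80 ± 0.19, adjusted p = 0.0318, edgeR). Of 14 ATF4 response genes, 1 passed: Ddit4, an inhibitor of mTORC1, averaged 80.9 ± 32.2, 218 ± 87.2, 120 ± 21.9 and 213 ± 60.5 CPM in the same order (1.16 ± 0.24, adjusted p = 0.0169). The count was 0 among 13 subunits and partners of the vacuolar ATPase, which acidifies lysosomes, 22 ABC transporters, or 13 carriers and partners under other symbols. Both called genes were higher in LZ, and the medians of the 5 lists were 0.05, -0.16, 0.10, 0.24 and 0.22 in the order given here. In each of the other comparisons 0 genes of these lists passed. Whether the calls of Tfeb and Ddit4 hold under other processing or without single libraries was not examined. Over all genes, the 44 averaged zone calls higher in LZ depended on the libraries included. They ran from 14 (without SykY317F DZ replicate 1) to 72 (without WT DZ replicate 5) when 1 library was left out.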

How the data were processed

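Libraries were made from sorted cells by a variation of MARS-seq, which tags transcript ends with UMIs, per the labels' protocols. Tools listed in the submitters' processing notes are STAR 2.4.2a, HTSeq, cutadapt, DESeq and DESeq2, with the build mm10. For each gene the authors deposited UMI counts, analysed here, and read counts, used as an alternative. A normalised signal and regularised log2 values, also deposited, were not used, and from the authors' comparisons the members' log2 fold changes and adjusted p-values are quoted.

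Genes were filtered with filterByExpr (7999 of 9969 left, 99.3% of UMIs), scaled by TMM and fitted with a robust quasi-likelihood model of the 4 groups in edgeR 4.0.16 (R 4.3.3). Fold changes are on the log2 scale with standard errors and adjusted p-values (Benjamini-Hochberg over all tested genes of a contrast, threshold 0.05). DESeq2 1.42.0, other scalings, filters, read counts, a replicate block and leaving out libraries were alternatives. The steps were tested on simulated data, with larger changes than those of the called members and in well-counted genes only. That test does not show how smaller changes or members of few UMIs are recovered. Coordinates are from the GENCODE annotation of GRCm38, the assembly of mm10, and all 160 members had one.

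The members, the substrate classes, the other lists and the alternatives were chosen with earlier results of these data known. Named members are those that passed, the 6 with the smallest p per direction for the averaged zone effect and the 4 for each other comparison, the 12 with the most UMIs and a list of well-known carriers; members named for not overlapping were chosen after their values were seen. No pair of libraries was identical. A member that the naming rule selects is not reported here.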

Additional observations from a re-analysis of the deposited data

Results flagged for a closer look

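Libraries far from the others of their group were looked for in the groups of 4, over 46 members and 92 combinations of member and group, and 2 stood out. Chance alone marks about 1 in 20 such groups. Slc23a2 was at 29.8 CPM in WT DZ replicate 2, where the other 3 libraries held 22 to 23.1 CPM. Slc25a4 was at 550 CPM in WT DZ replicate 5, where the others held 346 to 371 CPM.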

How the results depend on the processing

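The count of members called for the averaged zone effect was 2. It was 1 with scaling by library size (Slc15a3), 0 with a replicate block, 0 without both libraries with the fewest UMIs, and 0 to 3 over leaving out each library in turn. It fell to 0 without WT DZ replicate 3 or 4, WT LZ replicate 1 or 2, SykY317F DZ replicate 1, 2 or 4, or SykY317F LZ replicate 2 or 4. With DESeq2 size factors, DESeq2's Wald test or the stricter filter it was 3. Under the replicate block Slc2a6 was at 1.02 (adjusted p = 0.0610) and Slc15a3 at 0.97 (adjusted p = 0.0594). Same-numbered DZ and LZ libraries correlated at -0.55 to 0.14 in WT (median 0.06), and differently numbered ones at -0.52 to 0.56 (median 0.025). In SykY317F these were -0.05 to 0.21 (median 0.11) and -0.23 to 0.13 (median -0.03). Between genotypes, same-numbered libraries correlated at 0.15 and 0.17 in LZ and at -0.01 and -0.16 in DZ. The labels do not say that a number marks a mouse, so the main fit did not pair libraries by number. Whether they are paired is not settled. Adjusted p-values over the alternatives ran from 0.00315 to 0.324 for Slc2a6 and 0.00407 to 0.257 for Slc15a3. The count for WT was 1 with DESeq2's Wald test and 0 under the other alternatives, and the other 4 counts were 0 under all 22. The share in WT DZ was 0.689% by read counts. Of 43 single fold changes under 936 alternatives, 2 changed sign, both without the libraries with the fewest UMIs: the difference of zone effects was then -0.23 for Slc2a6 and -0.15 for Slc15a3. The cause was not tested. Over all genes, the averaged zone calls, 44 higher and 70 lower in LZ, became 115 and 120 by DESeq2's Wald test, 28 and 74 by library size, 12 and 37 by read counts, and 5 and 12 without those libraries. Leaving out 1 library gave from 14 and 28 (without SykY317F DZ replicate 1) to 72 and 80 (without WT DZ replicate 5), with 44 and 88 without SykY317F LZ replicate 4. In WT, 4 and 11 became 43 and 54 by the Wald test and 0 and 0 by read counts, and ran from 0 and 1 (without WT LZ replicate 2) to 11 and 15 (without WT LZ replicate 3) when 1 library was left out. In SykY317F 1 and 2 became 19 and 23 by the Wald test and 2 and 18 by read counts, 0 and 0 without SykY317F DZ replicate 1 or 4 or SykY317F LZ replicate 2, and 1 and 9 without SykY317F DZ replicate 2. For genotype in LZ, 0 became 29 higher and 14 lower in SykY317F by the Wald test, 13 and 41 by read counts, 3 and 2 without WT DZ replicate 5, 2 and 1 without WT LZ replicate 3 and 0 and 1 without WT LZ replicate 2, and in DZ 2 higher by the Wald test. Scaling by library size moved the median of all genes in SykY317F from -0.04 to -0.19. In SykY317F LZ, differences resting on fewer than about 3 UMIs per library were not detectable at this depth.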
